A study of Mus musculus with 9 samples.

Results

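The genes described are those of matrix breakdown and crosslinking in mouse renal cortex: the matrix metalloproteinases (MMPs), their tissue inhibitors (TIMPs), the ADAM and ADAMTS proteases with the ADAMTS-like proteins, the lysyl oxidases and extracellular matrix protein Ecm1. They were chosen by symbol, as every gene named Mmp or Adam with a number, Timp1 to Timp4, every name starting with Adamts or Lox, and Ecm1. Of 21950 mRNA genes in the tables, 91 matched, and 53 of these reached 0.1 FPKM on average across 9 libraries, as did 14537 of all genes. Of the 38 under that minimum, 16 were listed at 0 in every library and 22 were above 0 in 1 or more. FPKM is corrected for transcript length, so levels can be compared between genes, and each level here is the FPKM summed over the transcripts of a gene. Because the minimum was set on the mean of all libraries, genes high in only 1 group could pass it.

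Cortical RNA freed of ribosomal RNA was sequenced from 9 male mice, 1 strand-specific library per mouse and 3 libraries per group. Control mice were db/m littermates, heterozygous for the leptin receptor mutation db, and received no rosiglitazone. The methods of the paper name vehicle for db/db mice only. The dbdb mice were homozygous db/db mice on the C57BL/KsJ background, an obese and diabetic model, and received vehicle by gavage, while the dbR mice were db/db mice given rosiglitazone, which activates PPARγ, at 20 mg/kg per day by gavage. Treatment ran for 8 weeks from 7 weeks of age, and all mice were 15 weeks old when the cortex was taken. No db/m mice on rosiglitazone were analysed here, so dbR differed from Control in both genotype and treatment. The depth, estimated from the FPKM that a single fragment gives in genes with 1 transcript, was 25.8, 24.7 and 26.5 M fragments in Control replicates 1 to 3, 24.0, 24.9 and 25.4 M in dbdb and 29.1, 27.2 and 23.5 M in dbR. Transcripts of the mitochondrial genome took 26.9% to 32.8% of the summed FPKM.

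MMPs are zinc proteases that are secreted or held in the cell membrane as inactive precursors and that cut collagens, elastin and other matrix proteins once activated, and TIMPs block them by binding the active site. ADAMs mostly shed growth factors, cytokines and receptors from the cell surface, ADAMTS proteases trim procollagens or cut large proteoglycans, and lysyl oxidases join collagen and elastin chains by oxidising lysines. In the kidney these enzymes turn over the glomerular and tubular basement membranes and the interstitial matrix, and their balance is studied in diabetic nephropathy, where the mesangium and basement membranes thicken.

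Levels within the family spanned a wide range and were led by an inhibitor. Timp3 alone held 73.2% of the summed mean FPKM of the 91 genes, with a mean of 536. Ecm1 came next at 46.2, then the membrane proteases Adam9 at 35.8, Adam10 at 24.0 and Adam15 at 11.2. The most abundant MMP was Mmp14, a membrane collagenase that also activates Mmp2, with a mean FPKM of only 2.31, and the most abundant lysyl oxidase was Loxl1 at 4.22. By role, the 0.1 minimum was met by 4 of 4 TIMPs, 5 of 5 lysyl oxidases, 5 of 5 ADAMTS-like genes, 3 of 3 procollagen N-proteinases, 5 of 7 aggrecanases and versicanases, 5 of 9 other ADAMTS genes, 14 of 33 ADAMs, 4 of 6 membrane MMPs and 3 of 6 other MMPs. The classic secreted MMPs were mostly under it. Of the collagenases only Mmp13 passed (1 of 4), of the gelatinases Mmp2 (1 of 2) and of the stromelysins and matrilysin Mmp11 (1 of 4), while gelatinase Mmp9 had a mean FPKM of 0.0530, stromelysin Mmp3 0.0418 and matrilysin Mmp7 0.00957. Loxhd1, which shares the Lox letters but is a stereocilia protein and not a lysyl oxidase, was listed at 0 in all libraries. Just inside the minimum lay Adam8, with a mean FPKM of 0.126, and just outside it Adamts13, with 0.0823.

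In dbdb against Control cortex, which asks what the diabetic genotype changes, all 4 called MMPs and 3 of 4 called ADAMs were lower. The called ADAMTS (Adamts6, Adamts14), ADAMTS-like (Adamtsl2, Adamtsl3) and lysyl oxidase (Loxl1) genes were higher. With uncalled genes included, classes were mixed. Log2 fold changes were above 0 for 8 of 14 ADAMs, 3 of 4 membrane MMPs and 2 of 3 other MMPs. They were above 0 for 2 of 5 aggrecanases and versicanases, 2 of 5 other ADAMTS genes, 4 of 5 ADAMTS-like genes and 5 of 5 lysyl oxidases, beside 49.6% of all genes. These directions were not compared between classes by a test, and the 3 lower ADAM calls were lost under scaling without mitochondrial genes (adjusted p 0.0930 for Adam10, 0.454 for Adam17 and 0.142 for Adam19). Collagenase Mmp13, macrophage elastase Mmp12, stromelysin Mmp11, the membrane protease Mmp15, the sheddases Adam10, Adam17 and Adam19 and the inhibitor Timp3 fell. Ecm1, Loxl1, Adamtsl2, Adamtsl3, Adamts6, Adamts14, Timp1 and Adam1b rose. With limma on log2(FPKM + 0.1) over all 14537 genes, 16 of 53 genes passed at an adjusted p under 0.05, or 30.2%, beside 26.4% of all genes tested. Of the 16, 8 were higher (13.1% of all genes) and 8 lower (13.4% of all genes). The 3 libraries of each group did not overlap for 26 of 53 genes, beside 42.4% of all genes. The median log2 fold change was 0.19 over the 53 genes and -0.0030 over all genes. Scaling the libraries without mitochondrial genes shifted the median of all genes by 0.15, and the split of called genes became 14 higher and 5 lower (73.7% higher in place of 50%), while over all genes 78.3% of calls were higher in place of 49.5%. Without Control replicate 2, 10 genes were called.

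Rosiglitazone in db/db mice was compared through dbR against dbdb, and Ecm1 and Loxl4, an amine oxidase of the lysyl oxidase family, rose. They were the 2 of 53 genes called, beside 0.743% of all genes, and both were higher (0.564% of all genes), while 0 were lower (0.179% of all genes). At an unadjusted p under 0.05 there were 17 of 53 genes, or 32.1%, beside 17.5% of all genes. The groups did not overlap for 17 of 53, of which 13 were higher in dbR, beside 22.7% of all genes. The median log2 fold change was 0.26 over the 53 genes and -0.0022 over all genes. Log2 fold changes lay above 0 for 42 of 53 genes (79.2%), against 49.5% of all genes, and for 36 (67.9%) under quantile normalization as under scaling without mitochondrial genes, when 47.5% and 36.8% of all genes were above 0. The count was 1 without dbdb replicate 1 or 2 or dbR replicate 2 or 3, and 4 without dbdb replicate 3. The 108 genes called over all genes became 36, 31, 2 and 10 without dbdb replicate 1, dbdb replicate 2, dbR replicate 2 and dbR replicate 3, and 141 without dbdb replicate 3, so the share of all genes also depended on single libraries. The 108 became 203 under 75th percentile scaling, 234 under quantile normalization and 18 in limma without the trend, with 2 genes of the family called in each. Over all genes, 75.9% of the calls were higher as deposited and 48.6% without mitochondrial genes.

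The dbR cortex set against Control, where genotype and drug act together, had the most called genes of the family. All of the lysyl oxidases but Loxl3 rose, with Ecm1, Timp2, Mmp2, Mmp14, Adamts5, Adamts6, Adamts14, Adamts15, Adamtsl2, Adam22 and Adam1b, while Timp3, Mmp13, Mmp15, Adam10 and Adamts1 fell. These were 20 of 53 genes (37.7%), beside 24.1% of all genes, with 15 higher (12.3% of all genes) and 5 lower (11.8% of all genes). The groups did not overlap for 32 of 53, beside 41.9% of all genes, and the median log2 fold change was 0.42 over the 53 genes and -0.0014 over all genes. Higher genes made up 75% of the calls in the family and 51.1% over all genes as deposited. The shares were 64.7% and 51.4% under quantile normalization, 76.2% and 62.3% under 75th percentile scaling, and 80% and 70.5% without mitochondrial genes. The comparisons share libraries: both tests against Control use the same Control mice, and both tests with dbdb the same dbdb mice. In all, 26 of 53 genes were called in 1 or more comparisons, 10 in both comparisons with Control, and Ecm1 in all 3.

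**Figure D1:**
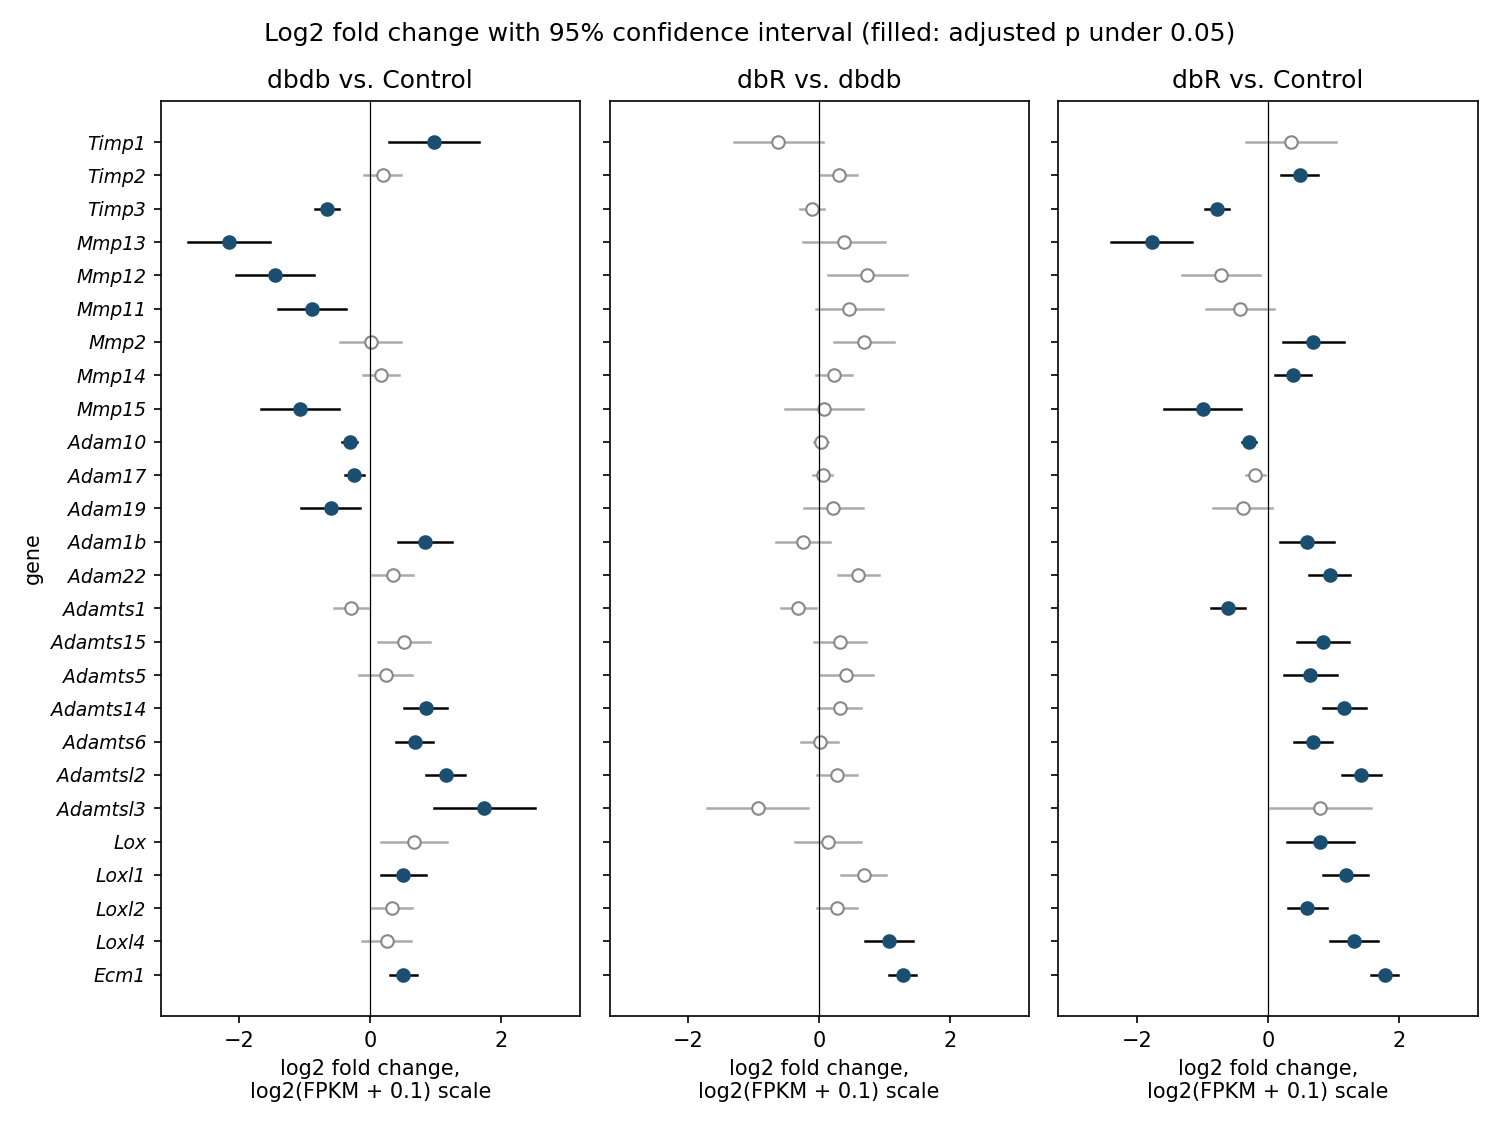
Log2 fold change on the log2(FPKM + 0.1) scale (x axis) for the 26 genes called in 1 or more comparisons (y axis), with lines for the 95% confidence interval; filled points have an adjusted p under 0.05. Filled points lie on both sides of 0 for dbdb against Control, 2 genes are filled for dbR against dbdb, and 15 of the 20 filled points for dbR against Control lie above 0.

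Among the inhibitors, Timp3 carried nearly all of the transcript and fell in both db/db groups. Timp3 binds the matrix and inhibits MMPs, ADAM17 and several ADAMTS proteases. Its FPKM was 662, 790.3 and 727 in Control, 427, 493 and 457 in dbdb and 422, 415 and 433 in dbR. All 6 db/db libraries lay below all 3 Control libraries, and dbdb and dbR overlapped. The mean was 726 ± 64.1 in Control (SD, n = 3), 459 ± 33.0 in dbdb and 423 ± 8.89 in dbR. Timp3 (ENSMUSG00000020044, chr10:86300372-86349506, plus strand, GRCm38) fell in dbdb (log2 fold change -0.66, SE 0.083, adjusted p = 0.000412) and in dbR against Control (log2 fold change -0.78, SE 0.083, adjusted p = 0.000209). Between dbR and dbdb the log2 fold change was -0.11, with a 95% confidence interval of -0.30 to 0.071. One transcript made up nearly all of the gene, with a mean FPKM of 534 against 1.87 for the other.

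Timp2, which blocks MMPs and also takes part in the activation of Mmp2 by Mmp14, read 6.35, 4.93 and 5.57 in Control, 5.95, 6.01 and 7.24 in dbdb and 8.08, 8.86 and 6.83 in dbR. Only dbR and Control were fully apart. It rose in dbR against Control (log2 fold change 0.49, SE 0.13, adjusted p = 0.0201) and was not called in dbdb (log2 fold change 0.19, adjusted p = 0.311). The Timp2 call in dbR vs Control was lost without Control replicate 2, Control replicate 3, dbR replicate 1 or dbR replicate 2 (adjusted p 0.0533 to 0.0731), and with transcripts tested singly (adjusted p 0.0620). Timp1, the inducible inhibitor that often marks fibrosis, was near the limit of detection, with FPKM of 0.109, 0.0612 and 0.0570 in Control, 0.252, 0.306 and 0.179 in dbdb and 0.206, 0.0561 and 0.129 in dbR. That corresponds to an estimated 1.26 to 6.34 fragments per library. The dbdb libraries were above all Control libraries, dbR overlapped both, and Timp1 rose in dbdb (log2 fold change 0.97, SE 0.31, adjusted p = 0.0414). The Timp1 call in dbdb vs Control was lost without Control replicate 1, Control replicate 2, Control replicate 3, dbdb replicate 1, dbdb replicate 2 or dbR replicate 3 (adjusted p 0.05001 to 0.129), and with a pseudocount of 0.01, with transcripts tested singly and with a replicate block (adjusted p 0.0515 to 0.0917). Timp4 FPKM was 0.131, 0.0485 and 0.0449 in Control, 0.140, 0.253 and 0.311 in dbdb and 0.266, 0.1002 and 0.152 in dbR. It was likewise low, with dbdb above Control in every library and an adjusted p of 0.0632. Timp1, Timp3 and Timp4 overlap the synapsin genes Syn1, Syn3 and Syn2, which lie on the opposite strand, and the libraries kept the strand. The synapsins had mean FPKM of 0.158, 3.37 and 2.00.

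The secreted proteases Mmp13 and Mmp12 showed the largest falls of the family in dbdb. Mmp13 cuts fibrillar collagen and is the main interstitial collagenase of the mouse. Its FPKM was 1.33, 1.36 and 1.12 in Control, 0.121, 0.192 and 0.346 in dbdb and 0.287, 0.217 and 0.420 in dbR. The 3 Control libraries were all above 1 and the 6 db/db libraries all below them, with dbdb and dbR overlapping. Mmp13 (ENSMUSG00000050578, chr9:7272514-7283331) fell in dbdb (log2 fold change -2.16, SE 0.28, adjusted p = 0.000498) and in dbR against Control (log2 fold change -1.78, SE 0.28, adjusted p = 0.00161), and the interval for dbR against dbdb was -0.24 to 1.004. Mmp12, an elastase made chiefly by macrophages, had FPKM of 1.12, 0.939 and 1.33 in Control, 0.407, 0.195 and 0.490 in dbdb and 0.720, 0.736 and 0.496 in dbR. The order was Control, dbR, dbdb with no overlap between any of the groups. Mmp12 (ENSMUSG00000049723, chr9:7344381-7369499) fell in dbdb (log2 fold change -1.45, SE 0.27, adjusted p = 0.00372), and was not called in dbR against dbdb (log2 fold change 0.74, adjusted p = 0.198) or against Control (-0.72, adjusted p = 0.0799). The Mmp12 call in dbdb vs Control was lost with transcripts tested singly (adjusted p 0.0502). An estimated 7.77 to 92.1 fragments per library stood behind Mmp13 and 6.54 to 55.8 behind Mmp12. The log2(FPKM + 0.1) scale understates fold changes at such levels: the ratio of group means was 0.173 for Mmp13 and 0.322 for Mmp12 in dbdb against Control.

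The pair are neighbours. They are the first 2 of 10 Mmp genes in a row on chromosome 9 and lie 61049 bases apart on the plus strand, and the other 8 were under the 0.1 minimum, with Mmp1a, Mmp1b and Mmp10 listed at 0 in all libraries. Of 8 macrophage markers, 4 also fell in dbdb, beside 13.4% of all genes, and 1 in dbR against Control, beside 11.8% of all genes. The summed FPKM of 8 macrophage genes was 51.7, 43.9 and 50.9 in Control, 23.2, 28.3 and 38.3 in dbdb and 31.8, 36.8 and 41.1 in dbR, so every db/db library was below every Control library, a sum led by C1qa and C1qb. Of these 8, Adgre1, Cd68, Csf1r and Itgam fell in dbdb and Csf1r fell in dbR against Control, while the most abundant, the complement gene C1qa, had a mean FPKM of 12.7 and was not called. Cd14 was level in dbdb (log2 fold change -0.014, adjusted p = 0.965), and in dbR against Control Cd14 and Mrc1 had log2 fold changes of 0.20 and 0.0026, neither called. Csf1r, the receptor for the macrophage growth factor, had FPKM of 11.5, 9.50 and 13.5 in Control, 3.62, 4.77 and 4.79 in dbdb and 5.67, 5.08 and 5.97 in dbR (dbdb against Control, log2 fold change -1.37, SE 0.14, adjusted p = 0.000176). No gene of the list was at 0. The part of macrophage content in the Mmp12 and Mmp13 values was not tested, and in cortex as a whole fewer cells of a type and less RNA per cell cannot be told apart.

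Mmp11 and Mmp15 fell as well. Mmp11, a stromelysin that the protease furin activates inside the cell, had FPKM of 0.921, 1.43 and 1.09 in Control, 0.684, 0.474 and 0.549 in dbdb and 1.13, 0.644 and 0.733 in dbR. Control and dbdb were apart and dbR overlapped both, and the gene fell in dbdb (log2 fold change -0.89, SE 0.23, adjusted p = 0.0185). The Mmp11 call in dbdb vs Control was lost without Control replicate 2 or dbdb replicate 2 (adjusted p 0.0650 to 0.0669), and with transcripts tested singly (adjusted p 0.125). Mmp11 overlaps Chchd10 on the opposite strand, which had a mean FPKM of 303. Mmp15, a membrane-bound protease, read 0.705, 1.13 and 0.534 in Control, 0.242, 0.419 and 0.282 in dbdb and 0.370, 0.289 and 0.331 in dbR. Every db/db library was below every Control library, and Mmp15 fell in dbdb (log2 fold change -1.07, SE 0.27, adjusted p = 0.0153) and in dbR against Control (log2 fold change -0.9998, SE 0.27, adjusted p = 0.0223). The Mmp15 call in dbdb vs Control was lost without Control replicate 2 (adjusted p 0.0504), and with transcripts tested singly (adjusted p 0.0859). The Mmp15 call in dbR vs Control was lost without Control replicate 2, dbR replicate 2 or dbR replicate 3 (adjusted p 0.0551 to 0.0729), and with transcripts tested singly (adjusted p 0.114).

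Mmp14 and Mmp2 form an activation pair and were highest in dbR. Mmp14 FPKM was 2.22, 2.09 and 1.73 in Control, 2.22, 2.09 and 2.48 in dbdb and 2.89, 2.59 and 2.47 in dbR. It rose in dbR against Control (log2 fold change 0.39, SE 0.12, adjusted p = 0.0459), with those groups apart and dbdb overlapping both. The Mmp14 call in dbR vs Control was lost without Control replicate 2, Control replicate 3, dbdb replicate 1, dbdb replicate 2, dbR replicate 1, dbR replicate 2 or dbR replicate 3 (adjusted p 0.0557 to 0.151), and with no filter on low values, under quantile normalization, with transcripts tested singly, in a fit to the 6 libraries compared and with a replicate block (adjusted p 0.0625 to 0.145). Mmp2, a gelatinase made by stromal cells, had FPKM of 0.852, 0.624 and 0.675 in Control, 0.618, 0.757 and 0.778 in dbdb and 1.25, 1.58 and 0.892 in dbR. All 3 dbR libraries were above the other 6, and dbdb and Control overlapped. The gene rose in dbR against Control (log2 fold change 0.69, SE 0.21, adjusted p = 0.0369) and missed the threshold against dbdb (log2 fold change 0.69, adjusted p = 0.141). The Mmp2 call in dbR vs Control was lost without Control replicate 2, Control replicate 3, dbdb replicate 2, dbR replicate 1 or dbR replicate 2 (adjusted p 0.0514 to 0.125), and with no filter on low values, under quantile normalization, with transcripts tested singly, in a fit to the 6 libraries compared and with a replicate block (adjusted p 0.0540 to 0.1501). None of the remaining 5 MMPs was called in any of the 3 comparisons: Mmp23, Mmp28, Mmp17, Mmp19 and Mmp16 had mean FPKM of 1.41, 0.526, 0.389, 0.158 and 0.130. Of these, Mmp17 was higher in every dbdb library than in every Control library and Mmp19 higher in every dbR library than in every Control library.

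Of the 14 ADAMs, 3 fell and 1 rose in dbdb, beside 26.4% of all genes called, and 1 fell and 2 rose in dbR against Control, beside 24.1% of all genes called. The main sheddases Adam10 and Adam17 were abundant and their differences small. Adam10 processes Notch and many other membrane proteins. Its FPKM was 26.8, 27.8 and 27.9 in Control, 21.6, 21.99 and 22.5 in dbdb and 22.3, 22.9 and 22.2 in dbR. The libraries within a group were tight and all 6 db/db libraries lay below Control. Adam10 (ENSMUSG00000054693, chr9:70678997-70780229) fell in dbdb (log2 fold change -0.32, SE 0.050, adjusted p = 0.00158) and in dbR against Control (log2 fold change -0.29, SE 0.050, adjusted p = 0.00285), a ratio of group means of 0.802 and 0.819. Both calls were lost under scaling without mitochondrial genes, with an adjusted p of 0.0930 for dbdb and 0.0600 for dbR. Adam17, which releases TNF and ligands of the EGF receptor, read 10.2, 11.2 and 11.01 in Control, 8.70, 9.51 and 9.12 in dbdb and 9.61, 9.38 and 9.38 in dbR. It was lower in every db/db library than in every Control library and fell in dbdb (log2 fold change -0.25, SE 0.066, adjusted p = 0.0208), with log2 fold change -0.19, adjusted p = 0.0589 in dbR against Control. The Adam17 call in dbdb vs Control was lost without Control replicate 2, Control replicate 3 or dbdb replicate 1 (adjusted p 0.0638 to 0.0697), and under scaling without mitochondrial genes (adjusted p 0.454).

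Adam9 and Adam15, the other abundant ADAMs, were not called. Adam9 FPKM was 36.3, 38.7 and 37.1 in Control, 34.3, 36.1 and 32.8 in dbdb and 35.0, 36.2 and 35.4 in dbR. Its groups differed by little: every db/db library was below every Control library, with a log2 fold change of -0.12, adjusted p = 0.139 in dbdb. The 2 Adam9 transcripts went in different directions in dbdb against Control, with log2 fold changes of 0.065 for ENSMUST00000084035 and -0.51 for ENSMUST00000084032, neither called. Adam15 FPKM was 12.8, 10.7 and 11.1 in Control, 11.1, 11.7 and 12.7 in dbdb and 10.6, 10.2 and 10.3 in dbR. The dbR libraries were the lowest for this gene. Its most abundant transcript, ENSMUST00000029676, had a log2 fold change of -0.43 in dbR against Control and ENSMUST00000074582 one of 0.41, and neither was called.

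Adam22, which lacks a catalytic site and is known as a receptor for the secreted protein Lgi1, had FPKM of 1.24, 1.30 and 1.01 in Control, 1.39, 1.44 and 1.76 in dbdb and 2.20, 2.54 and 2.33 in dbR. The groups stood in the order Control, dbdb, dbR without overlap. It rose in dbR against Control (log2 fold change 0.94, SE 0.14, adjusted p = 0.00118), and in dbR against dbdb the log2 fold change was 0.60, adjusted p = 0.0745. The Adam22 call in dbR vs Control was lost with transcripts tested singly (adjusted p 0.102). Of its 20 listed transcripts 3 had a mean FPKM of at least 0.1, and ENSMUST00000115388 had a log2 fold change of 1.90 in dbR against Control while ENSMUST00000050166 had -0.0071, neither called. Adam1b is a paralog of Adam1a. Adam1b FPKM was 0.579, 0.693 and 0.795 in Control, 1.27, 1.33 and 1.30 in dbdb and 1.45, 0.978 and 0.891 in dbR. Every db/db library was above Control, and the gene rose in dbdb (log2 fold change 0.84, SE 0.19, adjusted p = 0.00907) and in dbR against Control (log2 fold change 0.59, SE 0.19, adjusted p = 0.0432). The Adam1b call in dbdb vs Control was lost with transcripts tested singly (adjusted p 0.0568). The Adam1b call in dbR vs Control was lost without any library but dbR replicate 3 (adjusted p 0.0507 to 0.132), and with no filter on low values, with a minimum mean FPKM of 1, under quantile normalization, with transcripts tested singly, in a fit to the 6 libraries compared and with a replicate block (adjusted p 0.0536 to 0.166). Adam1a had FPKM of 0.853, 0.780 and 0.926 in Control, 1.33, 1.26 and 1.30 in dbdb and 1.499, 0.823 and 1.35 in dbR and an adjusted p of 0.0606 in dbdb. Fragments of Adam1a and Adam1b may be shared between these paralogs, and Adam1a overlaps Mapkapk5 on the same strand (mean FPKM 17.6), so both levels are uncertain. Adam19, a sheddase of neuregulin, had FPKM of 0.774, 0.901 and 0.544 in Control, 0.383, 0.472 and 0.480 in dbdb and 0.604, 0.530 and 0.467 in dbR. Control and dbdb did not overlap and the gene fell in dbdb (log2 fold change -0.60, SE 0.20, adjusted p = 0.0499), at the edge of the threshold. The Adam19 call in dbdb vs Control was lost without any library but Control replicate 3 (adjusted p 0.0588 to 0.160), and with a pseudocount of 0.01, with no filter on low values, under 75th percentile scaling, under scaling without mitochondrial genes, with transcripts tested singly, in a fit to the 6 libraries compared and with a replicate block (adjusted p 0.0532 to 0.208). The other 6 ADAMs were called in none of the 3 comparisons, and 3 of them, Adam8, Adam32 and Adam33, had mean FPKM of 0.126, 0.154 and 0.143.

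Among the aggrecanases and versicanases, which cut the large proteoglycans of the matrix, 0 of 5 were called in dbdb (26.4% of all genes), and in dbR against Control 2 rose and 1 fell (24.1% of all genes called). At an unadjusted p under 0.05 in dbdb there were 3 of 5, Adamts1, Adamts9 and Adamts15, beside 38.8% of all genes. Adamts1, the most abundant, had FPKM of 12.9, 14.3 and 11.03 in Control, 9.10, 11.3 and 10.7 in dbdb and 7.46, 9.18 and 8.23 in dbR. All dbR libraries were below all Control libraries, with dbdb between and overlapping both. It fell in dbR against Control (log2 fold change -0.61, SE 0.12, adjusted p = 0.00492), and in dbdb its log2 fold change was -0.29, adjusted p = 0.0947. Adamts5, the main aggrecanase of mouse cartilage, had FPKM of 2.89, 3.11 and 2.85 in Control, 3.03, 2.86 and 4.87 in dbdb and 4.47, 5.40 and 4.24 in dbR. Here dbR was above Control, and dbdb replicate 3 lay among the dbR libraries. Adamts5 rose in dbR against Control (log2 fold change 0.65, SE 0.18, adjusted p = 0.0273). The Adamts5 call in dbR vs Control was lost without Control replicate 1, Control replicate 2, Control replicate 3, dbR replicate 1 or dbR replicate 2 (adjusted p 0.0533 to 0.0946), and with transcripts tested singly (adjusted p 0.0843). Adamts15 had FPKM of 3.41, 1.98 and 2.38 in Control, 3.41, 4.04 and 3.56 in dbdb and 5.01, 3.93 and 4.92 in dbR. Both db/db groups were above Control, narrowly for dbdb, where the adjusted p was 0.0585. It rose in dbR against Control (log2 fold change 0.84, SE 0.18, adjusted p = 0.00816). Adamts9 and Adamts4 had mean FPKM of 3.89 and 0.223 and overlapping groups in all 3 comparisons with no call.

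Adamts14, an N-proteinase that removes the amino-terminal propeptide of procollagen, had FPKM of 0.578, 0.478 and 0.635 in Control, 1.097, 0.955 and 1.23 in dbdb and 1.36, 1.39 and 1.38 in dbR. The groups stood apart in the order Control, dbdb, dbR. It rose in dbdb (log2 fold change 0.85, SE 0.147, adjusted p = 0.00268) and in dbR against Control (log2 fold change 1.16, SE 0.147, adjusted p = 0.000512), and had a log2 fold change of 0.31, adjusted p = 0.307 in dbR against dbdb. The Adamts14 call in dbdb vs Control was lost with transcripts tested singly (adjusted p 0.0553). The other N-proteinases Adamts2 and Adamts3, with mean FPKM of 0.410 and 0.321, were not called, and Adamts2 was higher in every dbR library than in the other 6. Adamts6, a close relative of the fibrillin-binding Adamts10, had FPKM of 2.32, 1.92 and 1.75 in Control, 3.11, 3.69 and 2.95 in dbdb and 3.13, 3.46 and 3.18 in dbR. Both db/db groups were above Control and overlapped each other. Adamts6 rose in dbdb (log2 fold change 0.68, SE 0.13, adjusted p = 0.00398) and in dbR against Control (log2 fold change 0.69, SE 0.13, adjusted p = 0.00397). Adamts7, Adamts10, Adamts12 and Adamts16 were not called in any comparison.

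The ADAMTS-like proteins lack a protease domain and bind fibrillin microfibrils and other matrix. Adamtsl2, which binds fibrillin-1 and the latent TGF-β binding protein LTBP1, was the most abundant, with FPKM of 2.14, 1.90 and 2.34 in Control, 3.97, 5.02 and 5.66 in dbdb and 5.62, 6.38 and 5.63 in dbR. No db/db library came near the Control range, while dbdb and dbR overlapped. Adamtsl2 (ENSMUSG00000036040, chr2:27079379-27108981) rose in dbdb (log2 fold change 1.15, SE 0.13, adjusted p = 0.000292) and in dbR against Control (log2 fold change 1.43, SE 0.13, adjusted p = 0.000103), with ratios of group means of 2.30 and 2.76. Adamtsl3 FPKM was 0.546, 0.208 and 0.116 in Control, 1.12, 0.847 and 1.28 in dbdb and 0.450, 0.565 and 0.523 in dbR. The dbdb libraries were above all others, and dbR overlapped Control because of Control replicate 1. It rose in dbdb (log2 fold change 1.74, SE 0.35, adjusted p = 0.00543) and was not called in dbR against dbdb (log2 fold change -0.94, adjusted p = 0.204). Control replicate 1 also stood apart in smooth muscle markers, whose summed FPKM over 5 genes was 34.9, 16.2 and 15.7 in Control, 15.3, 14.7 and 22.9 in dbdb and 15.0, 21.1 and 17.3 in dbR, led by Acta2 with a mean of 7.71 and with 0 of 5 genes called in any comparison. The part of that library's smooth muscle content in Adamtsl3 was not tested. Adamtsl1, Adamtsl4 and Adamtsl5 had mean FPKM of 0.890, 0.650 and 0.428 and were not called.

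The lysyl oxidases were highest in dbR. Their summed FPKM was 5.43, 5.001 and 5.31 in Control, 6.24, 6.79 and 8.70 in dbdb and 9.72, 12.1 and 10.7 in dbR, with no overlap between any of the groups. All 5 had log2 fold changes above 0 in each of the 3 comparisons, as deposited and under each of the 3 scalings. Called were 1 of 5 in dbdb against Control (26.4% of all genes), 1 of 5 in dbR against dbdb (0.743% of all genes) and 4 of 5 in dbR against Control (24.1% of all genes). Loxl1, which acts on elastin, was the most abundant with FPKM of 2.69, 2.49 and 2.77 in Control, 3.09, 3.55 and 4.92 in dbdb and 5.53, 6.75 and 6.199 in dbR. The groups stood in the order Control, dbdb, dbR without overlap. It rose in dbdb (log2 fold change 0.50, SE 0.154, adjusted p = 0.0377) and in dbR against Control (log2 fold change 1.18, SE 0.154, adjusted p = 0.000595), and missed the threshold in dbR against dbdb (log2 fold change 0.68, adjusted p = 0.0708). The Loxl1 call in dbdb vs Control was lost without Control replicate 1, Control replicate 2, Control replicate 3, dbdb replicate 2, dbdb replicate 3 or dbR replicate 3 (adjusted p 0.0549 to 0.103), and with no filter on low values, under quantile normalization, with transcripts tested singly, in a fit to the 6 libraries compared and in limma without the trend (adjusted p 0.0554 to 0.104).

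Loxl4 was low but one of the called pair in dbR against dbdb. Its FPKM was 0.326, 0.427 and 0.386 in Control, 0.410, 0.492 and 0.507 in dbdb and 0.967, 1.18 and 1.13 in dbR. All 3 dbR libraries were well above the other 6, and dbdb and Control overlapped. Loxl4 (ENSMUSG00000025185, chr19:42593982-42612813, minus strand) rose in dbR against dbdb (log2 fold change 1.07, SE 0.17, adjusted p = 0.0282) and against Control (log2 fold change 1.32, SE 0.17, adjusted p = 0.000495), with ratios of group means of 2.33 and 2.88. The Loxl4 call in dbR vs dbdb was lost without dbdb replicate 1, dbdb replicate 2, dbR replicate 2 or dbR replicate 3 (adjusted p 0.0669 to 0.149), and with transcripts tested singly, in a fit to the 6 libraries compared and with a replicate block (adjusted p 0.0592 to 0.191). Loxl2, which crosslinks collagen IV of basement membranes, had FPKM of 1.55, 1.38 and 1.32 in Control, 1.68, 1.74 and 1.98 in dbdb and 2.13, 2.59 and 1.91 in dbR. Both db/db groups were above Control, and it rose in dbR against Control (log2 fold change 0.60, SE 0.14, adjusted p = 0.0106). The Loxl2 call in dbR vs Control was lost with transcripts tested singly (adjusted p 0.0590). Lox itself had FPKM of 0.355, 0.330 and 0.447 in Control, 0.637, 0.596 and 0.733 in dbdb and 0.487, 0.904 and 0.862 in dbR. Every db/db library was above Control, and Lox rose in dbR against Control (log2 fold change 0.80, SE 0.23, adjusted p = 0.0284), with log2 fold change 0.67, adjusted p = 0.0542 in dbdb. The Lox call in dbR vs Control was lost without Control replicate 1, Control replicate 2, dbR replicate 2 or dbR replicate 3 (adjusted p 0.0714 to 0.0992), and under quantile normalization and with transcripts tested singly (adjusted p 0.0633 to 0.181). Its 2 transcripts differed in direction between dbR and dbdb, with log2 fold changes of 0.48 for ENSMUST00000025409 and -0.22 for ENSMUST00000171470, neither called. Loxl3 FPKM was 0.519, 0.377 and 0.394 in Control, 0.420, 0.400 and 0.564 in dbdb and 0.607, 0.666 and 0.617 in dbR. The dbR libraries were the highest 3, with an adjusted p of 0.0923 against Control.

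Of the stromal and endothelial markers, 1 of 8 and 3 of 6 rose in dbR against dbdb, beside 0.564% of all genes. In that comparison Loxl4 was the only lysyl oxidase called and Mmp2 was not called. Over 8 genes of fibroblasts, pericytes and mesangial cells the summed FPKM was 49.8, 32.5 and 33.6 in Control, 26.6, 28.2 and 40.9 in dbdb and 45.7, 59.3 and 45.3 in dbR. Here Pdgfrb rose in dbR against dbdb (log2 fold change 0.69, SE 0.096, adjusted p = 0.0234), Pdgfra and Pdgfrb rose in dbR against Control and Col3a1 fell in dbdb, while the most abundant, Dcn, with a mean FPKM of 9.32, was not called. Lum had a mean of 0.472 in dbdb and 0.442 in dbR. Other members went the other way without a call. In dbR, Col3a1, Col1a1 and Lum had means of 5.23, 2.37 and 0.442 against 7.11, 2.74 and 0.706 in Control. Pdgfra had a mean of 5.71 in dbdb against 4.06 in Control. Over 6 endothelial genes the sum was 116, 128 and 117 in Control, 97.5, 97.8 and 90.2 in dbdb and 125, 145 and 129.8 in dbR, and every dbdb library was below every Control and dbR library. Cdh5, Emcn, Kdr and Pecam1 fell in dbdb, Emcn, Kdr and Tek rose in dbR against dbdb, and Flt1 and Tek rose in dbR against Control, beside 13.4% of all genes lower in dbdb and 12.3% higher in dbR against Control, with Emcn the most abundant at a mean of 32.3. Tek and Flt1 did not fall in dbdb, with means of 11.6 and 16.9 against 11.3 and 16.0 in Control, neither called. No gene of either list was at 0. The part of stromal or endothelial content in the lysyl oxidase and Mmp2 values was not tested.

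Ecm1 was the gene with the lowest adjusted p of the family in dbR against dbdb. It encodes a secreted glycoprotein that binds perlecan and other matrix proteins and binds Mmp9. FPKM was 26.8, 21.2 and 23.1 in Control, 30.8, 36.9 and 33.1 in dbdb and 81.4, 84.3 and 78.6 in dbR. The groups were fully apart in the order Control, dbdb, dbR, and the dbR libraries were the highest by a wide margin. The means were 23.7 ± 2.86 (SD, n = 3), 33.6 ± 3.04 and 81.4 ± 2.82. Ecm1 (ENSMUSG00000028108, chr3:95734147-95739569, minus strand) rose in dbdb (log2 fold change 0.51, SE 0.092, adjusted p = 0.00343), in dbR against dbdb (log2 fold change 1.28, SE 0.092, adjusted p = 0.00113) and in dbR against Control (log2 fold change 1.78, SE 0.092, adjusted p = 5.65e-06), with ratios of group means of 1.42, 2.42 and 3.44. All 3 calls were kept in each of the 20 alternatives. Of its 8 listed transcripts, 7 had a mean FPKM of at least 0.1. The most abundant, ENSMUST00000117507, was called in all 3 comparisons when transcripts were tested singly (adjusted p = 0.00895 in dbdb against Control, 0.00995 in dbR against dbdb and 0.000113 in dbR against Control). ENSMUST00000147217 had FPKM of 10.5, 6.28 and 6.19 in Control, 10.1, 15.7 and 9.10 in dbdb and 27.1, 23.2 and 26.1 in dbR. ENSMUST00000029753 had FPKM of 5.25, 5.52 and 4.14 in Control, 5.32, 5.55 and 4.50 in dbdb and 12.4, 14.0 and 8.79 in dbR. These last transcripts had all dbR libraries above the other 6, and both were called in dbR against Control (adjusted p = 0.00396 and 0.00580 over 29362 transcripts) but not in dbR against dbdb (0.163 and 0.104). The other minor transcripts, ENSMUST00000131376, ENSMUST00000153026, ENSMUST00000128885 and ENSMUST00000123143, had mean FPKM of 0.523, 0.499, 0.423 and 0.405, and of these only ENSMUST00000131376 was called in dbR against Control (adjusted p = 0.0252).

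**Figure D2:**
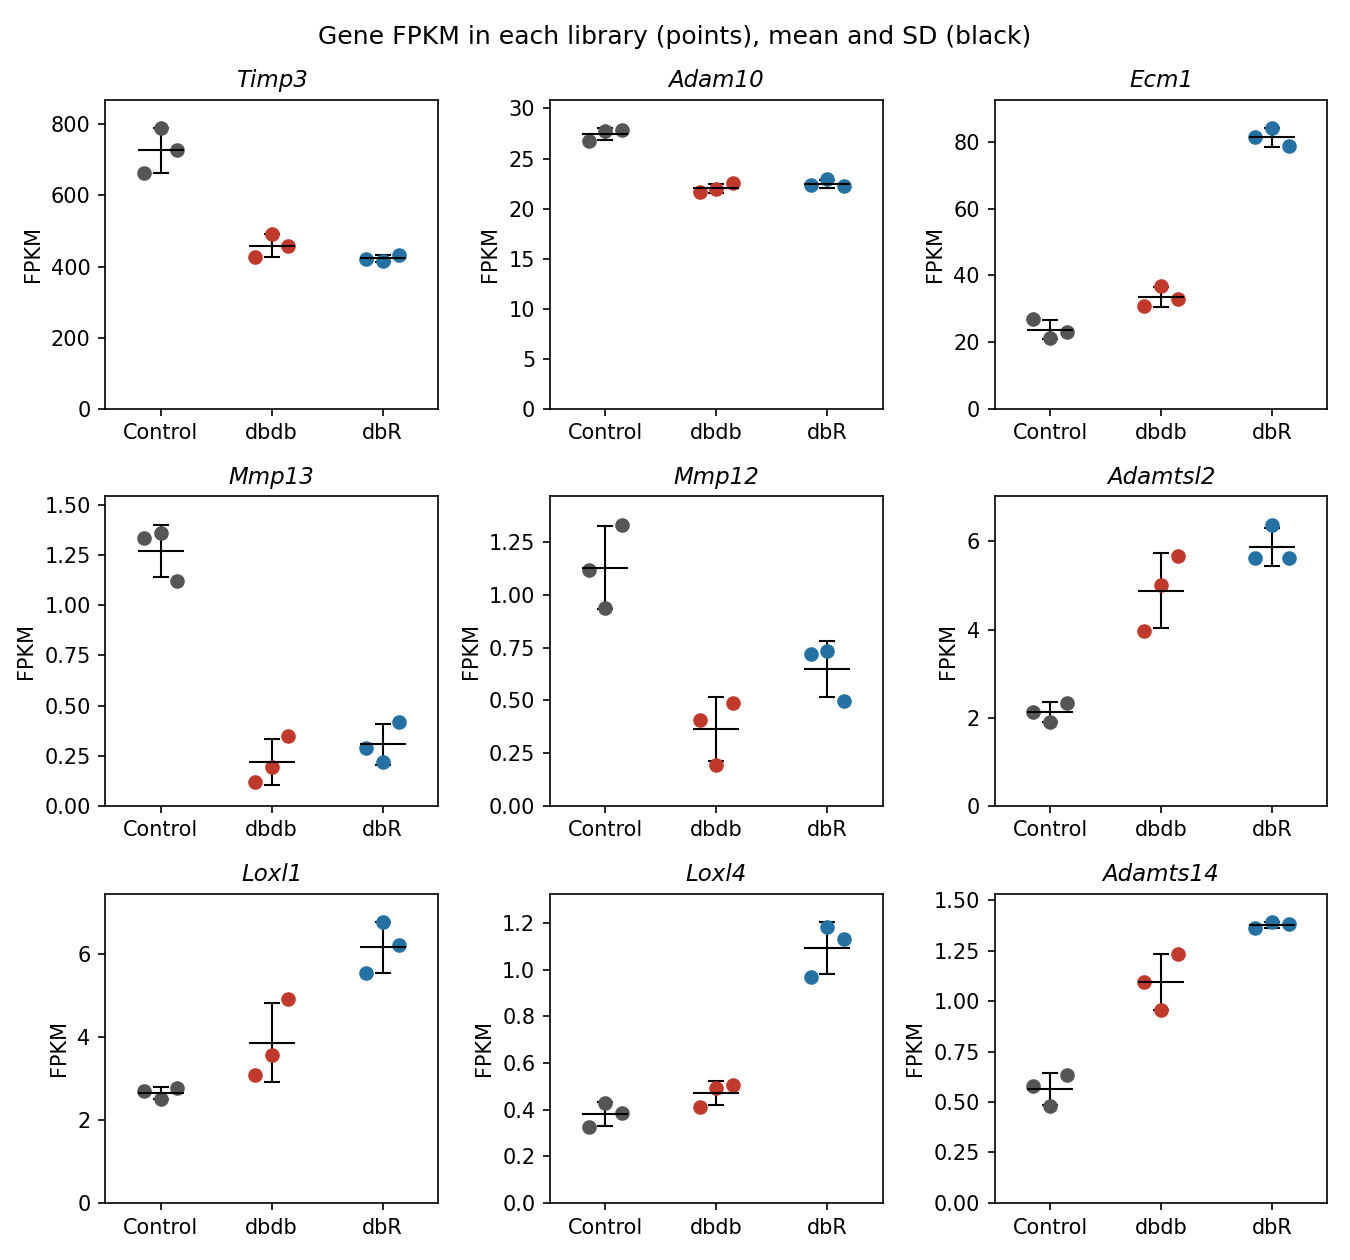
FPKM (y axis, linear, from 0) of 9 genes in each library (points) by group (x axis), with the mean and SD of the 3 libraries in black. The 6 db/db libraries lie below Control for Timp3, Adam10, Mmp13 and Mmp12, and above it for Ecm1, Adamtsl2, Loxl1 and Adamts14, and Ecm1 and Loxl4 are highest in dbR.

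Promoters of the genes called against dbdb and of the neighbours Mmp12 and Mmp13 are shown for their sequence around the start, from RefSeq (GRCm38.p6). Capitals mark the AP-1 motif TGANTCA and the nuclear receptor motif AGGTCA, each searched on both strands. AP-1 was in 2565 of 32851 promoters (7.81%), AGGTCA in 5340 (16.3%) and the direct repeat of AGGTCA with 1 base between, which PPAR binds with RXR, in 13 (0.0396%). Of 53 genes, 31 had 35 promoters in the table, of which 5 held AP-1, 6 AGGTCA and 0 the repeat. In Ecm1 an AP-1 match began 64 bases before the start, in Mmp13 35 and in 1 of 2 Mmp12 promoters 44, where AGGTCA also began 99 bases before it. That Mmp12 promoter, the one printed, lies inside the gene, and the other, at chr9:7344147-7344446 by the start of the gene, had no match. Loxl4 had no match. A match describes the letters and is no evidence of binding.
Ecm1 (chr3:95739520-95739819, minus strand): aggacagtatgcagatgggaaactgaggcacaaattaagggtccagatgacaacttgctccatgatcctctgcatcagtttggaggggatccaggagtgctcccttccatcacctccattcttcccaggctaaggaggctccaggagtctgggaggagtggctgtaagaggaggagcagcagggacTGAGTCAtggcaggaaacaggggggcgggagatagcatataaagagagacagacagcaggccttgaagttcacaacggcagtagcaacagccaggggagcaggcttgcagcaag
Loxl4 (chr19:42612757-42613056, minus strand): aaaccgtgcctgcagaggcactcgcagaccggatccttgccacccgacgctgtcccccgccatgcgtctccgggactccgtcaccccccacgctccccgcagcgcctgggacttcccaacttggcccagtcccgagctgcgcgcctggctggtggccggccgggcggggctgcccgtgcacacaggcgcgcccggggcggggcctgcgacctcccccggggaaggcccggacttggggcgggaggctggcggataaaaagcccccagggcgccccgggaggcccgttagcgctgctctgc
Mmp13 (chr9:7272264-7272563, plus strand): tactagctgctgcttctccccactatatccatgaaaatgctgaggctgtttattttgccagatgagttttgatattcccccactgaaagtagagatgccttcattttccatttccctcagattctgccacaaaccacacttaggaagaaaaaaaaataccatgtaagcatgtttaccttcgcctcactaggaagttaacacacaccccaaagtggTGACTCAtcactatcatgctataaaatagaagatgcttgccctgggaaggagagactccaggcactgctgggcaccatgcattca
Mmp12 (chr9:7347124-7347423, plus strand): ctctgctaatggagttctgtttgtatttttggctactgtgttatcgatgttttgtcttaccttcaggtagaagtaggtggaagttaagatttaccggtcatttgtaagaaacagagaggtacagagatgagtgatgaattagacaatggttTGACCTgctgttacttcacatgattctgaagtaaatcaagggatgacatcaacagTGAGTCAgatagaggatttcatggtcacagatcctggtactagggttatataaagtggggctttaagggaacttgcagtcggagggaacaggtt

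Proteases outside the family that activate or complement it were also called. The shares of all genes called were 26.4% in dbdb, 0.743% in dbR against dbdb and 24.1% in dbR against Control. Of 11 genes of the plasminogen system and protease activators, 1 rose (Plat) and 3 fell (Plau, Plg and Serpinf2) in dbdb, and 0 were called in dbR against dbdb. The most abundant was Bsg, an inducer of MMPs, with a mean FPKM of 319. The median log2 fold changes were -0.056 and -0.099. Plau, the urokinase that turns plasminogen into plasmin, had FPKM of 153, 139 and 211 in Control, 67.4, 53.4 and 51.2 in dbdb and 72.8, 70.2 and 74.6 in dbR (dbdb against Control, log2 fold change -1.53, SE 0.147, adjusted p = 0.000101). Of 6 other metalloproteinases, Mep1a, Mep1b and Mme fell in dbdb and in dbR against Control, Mme rose in dbR against dbdb and Bmp1 rose in dbR against Control. Mep1a, a subunit of the brush border protease meprin, had FPKM of 593, 572 and 683 in Control, 299.9, 274 and 267 in dbdb and 285, 287 and 319 in dbR (dbdb against Control, log2 fold change -1.13, SE 0.086, adjusted p = 2.84e-05). Mme, the brush border protease neprilysin, had FPKM of 59.0, 60.0 and 56.8 in Control, 34.0, 33.6 and 35.0 in dbdb and 43.8, 43.4 and 43.5 in dbR (dbR against dbdb, log2 fold change 0.35, SE 0.048, adjusted p = 0.0234). Of 8 cathepsins, which are lysosomal proteases, Ctsh fell in dbdb and Ctsk rose in dbR against Control, and the most abundant, Ctsl, had a mean FPKM of 312.

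Of 11 genes of other inhibitors, clearance and regulators, 6 rose in dbdb (Lrp1, Rhbdf1, Rhbdf2, Spock2, Thbs1 and Wfdc2) and 0 fell, 0 were called in dbR against dbdb, and Lrp1, Rhbdf2, Thbs1 and Wfdc2 rose in dbR against Control. Of all genes, 13.1% rose and 13.4% fell in dbdb, 0.743% were called in dbR against dbdb, and 12.3% rose and 11.8% fell in dbR against Control, shares that apply as well to the next lists. Rhbdf1 and Rhbdf2 are not inhibitors but iRhoms, which Adam17 needs to mature. The most abundant was Cst3, an inhibitor of cathepsins, with a mean FPKM of 167. Among them Thbs1, which binds MMPs and activates latent TGF-β, had FPKM of 7.24, 7.02 and 6.74 in Control, 13.8, 11.8 and 13.0 in dbdb and 11.9, 11.5 and 9.37 in dbR (dbdb against Control, log2 fold change 0.86, SE 0.099, adjusted p = 0.000255). Lrp1, an endocytic receptor that clears several MMPs and TIMPs, had FPKM of 5.90, 5.68 and 5.56 in Control, 8.56, 7.20 and 9.02 in dbdb and 11.04, 14.4 and 11.6 in dbR (dbR against Control, log2 fold change 1.09, SE 0.11, adjusted p = 0.000175). Of 15 genes of collagen maturation outside the Lox family, Pcolce and P3h2 rose and Crtap, P4ha1, Plod2, Serpinh1 and Tgm1 fell, both in dbdb and in dbR against Control, and 0 were called in dbR against dbdb, with Tgm2 the most abundant at a mean FPKM of 71.6. Plod2, a lysyl hydroxylase that prepares collagen for crosslinking, had FPKM of 12.8, 12.7 and 12.1 in Control, 8.11, 9.04 and 9.50 in dbdb and 7.07, 8.16 and 7.31 in dbR. Its dbdb and dbR libraries were all below Control (dbR against Control, log2 fold change -0.73, SE 0.082, adjusted p = 0.000266). Of 19 substrates and partners, Bgn, Col6a1 and Fbn1 rose in dbR against dbdb, and Bgn, Col4a2, Col6a1, Fbln5 and Fbn1 rose and Col4a3 fell in dbR against Control. In dbdb against Control Bgn rose and Col3a1, Col4a3 and Postn fell. Fbn1, the fibrillin of the microfibrils that ADAMTS-like proteins bind, had FPKM of 2.00, 1.57 and 1.85 in Control, 1.91, 2.01 and 2.31 in dbdb and 3.46, 4.06 and 3.16 in dbR (dbR against dbdb, log2 fold change 0.75, SE 0.13, adjusted p = 0.0426). The most abundant was Col4a1, at a mean FPKM of 46.2, and the proteoglycan Acan was listed at 0.

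Markers of tubules, glomeruli and other cells were summed for each library, and their calls stand beside 26.4% of all genes called in dbdb, 0.743% in dbR against dbdb and 24.1% in dbR against Control. Proximal tubule genes summed to FPKM of 2940.0, 2883 and 2608 in Control, 3105, 3435 and 2772 in dbdb and 3217, 3071 and 3104 in dbR, led by Slc34a1 with a mean of 1383. Of these 7 genes, Slc5a2 and Slc5a12 rose in dbdb, and Slc13a3 and Slc5a12 in dbR against Control. Aqp1 and Lrp2 went the other way in dbdb without a call (log2 fold changes -0.13 and -0.35). In dbR both were also below Control without a call, with means of 211 and 518 against 230 and 574. Cubn was nearly level in dbdb, with a mean of 164 against 166 in Control. The 5 genes of the thick ascending limb and distal tubule summed to 635, 535 and 552 in Control, 750.2, 781 and 1051 in dbdb and 868, 891 and 805 in dbR, led by Umod at 273, and Calb1, Pvalb and Slc12a3 rose in dbdb, joined by Slc12a1 in dbR against Control. The 5 collecting duct genes summed to 102, 92.1 and 112 in Control, 226, 137 and 179 in dbdb and 148, 154 and 168 in dbR, led by Aqp2 at 62.0, and Aqp2, Atp6v1g3, Scnn1g and Slc4a1 rose in dbdb and in dbR against Control, and Atp6v1g3 in dbR against dbdb. In both of these distal lists every db/db sum was above every Control sum. Umod did not share this rise and was not called. Its Control mean of 276.8 stood beside 265.8 (dbdb) and 276.5 (dbR). For this gene dbdb replicates 1 and 2, at 208.8 and 213.7, lay below every Control library, while dbdb replicate 3, at 374.9, lay above them all. Over 6 podocyte genes the sum was 87.6, 78.8 and 76.9 in Control, 90.6, 96.8 and 96.6 in dbdb and 92.8, 101 and 83.3 in dbR, led by Podxl at 43.3, and Nphs1, Podxl and Ptpro rose in dbdb and Nphs1 and Podxl in dbR against Control. Adipocyte genes summed to 32.9, 36.9 and 44.3 in Control, 33.0, 21.9 and 22.9 in dbdb and 46.5, 45.8 and 43.4 in dbR, led by Fabp4 at 35.7, which fell in dbdb and rose in dbR against dbdb, and Cfd fell in dbdb and in dbR against Control. That sum was nearly all Fabp4. Adipoq, Plin1, Cidec, Lep and Cfd had mean FPKM of only 0.126, 0.0319, 0.132, 0.0125 and 0.409, so the sum describes Fabp4 and not the list. Lymphocyte genes were low, and over 6 genes led by Nkg7 (mean 0.362) the sum was 2.83, 1.98 and 1.28 in Control, 0.394, 0.588 and 0.917 in dbdb and 0.417, 0.998 and 0.692 in dbR, so every db/db library was below every Control library. Neutrophil genes, 4 in number and led by S100a9 (mean 3.18), summed to 3.93, 2.79 and 3.55 in Control, 6.93, 3.95 and 6.38 in dbdb and 4.78, 5.45 and 8.05 in dbR. Every db/db library was above every Control library here, narrowly for dbdb replicate 2. In dbdb Cd79a fell and S100a8 rose, and S100a8 rose in dbR against Control. Csf3r went the other way in dbdb without a call, with every library below Control (means 0.168 and 0.271). No marker of these lists was at 0 in all libraries. The part of any of these cell types in the protease and crosslinker values was not tested.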

How the data were processed

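Strand-specific RNA-seq libraries of renal cortex were compared in 3 groups of 3 mice. The authors aligned reads with TopHat2 2.0.9 and estimated FPKM per transcript with Cufflinks 2.1.1, as the submitters' processing notes state with the build GRCm38.p2. The deposited FPKM of 50660 mRNA transcripts were summed per gene. No 2 libraries held identical values. log2(FPKM + 0.1) was, for the 14537 genes whose mean FPKM reached 0.1, tested with limma 3.58.1 (R 4.3.3, variance trend, moderated statistic, two-sided) in 1 model of the 3 groups, with Benjamini-Hochberg adjustment over all genes, and called at an adjusted p under 0.05. The fit was tested on simulated data. Count models were not run, since FPKM are no counts. Tables and figures used python 3.11.15, numpy 2.4.6, pandas 2.3.3 and matplotlib 3.10.9.

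Values in every library were given for each gene called in 1 or more comparisons, every TIMP, every lysyl oxidase, Ecm1 and the 5 genes with the highest mean FPKM; transcripts for Ecm1, with library values for 2 of them, and where transcripts of a named gene differed in direction. From the other pathway and marker lists, the most abundant and most of the called genes were named. Genes and lists were chosen with earlier results of these data known. ADAMs were not split by their zinc-binding motif, since proteins were not used here, and roles are textbook knowledge. Gene coordinates and overlaps came from GENCODE vM21 (GRCm38), and promoters from RefSeq (GRCm38.p6). Estimated fragments were FPKM multiplied by transcript length and depth. The 18 lncRNA tables held 0 matching symbols. Alternatives were pseudocounts of 1 and 0.01, no minimum or a mean FPKM of at least 1, 75th percentile scaling, quantile normalization, scaling without mitochondrial genes, transcripts tested singly, a fit to 6 libraries, limma without the trend, a replicate block, and leaving out each library.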

Additional observations from a re-analysis of the deposited data

How the results depend on the processing

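Of 38 calls of genes of the family, 17 were kept in all alternatives and 24 with each library left out. Calls of pathway and marker genes were not examined under the alternatives. Over 747 values under alternatives, 632 kept their direction and their side of the threshold, 115 kept the direction but lost the call and 0 changed direction. Transcripts tested singly lost 18 calls and pseudocount 1 lost 0 of the 38. With a minimum mean FPKM of 1, which leaves 24 of the 53 genes, the called genes numbered 9 in dbdb against Control, 1 in dbR against dbdb and 15 in dbR against Control, beside 3498, 166 and 3275 of all 11615 genes. With transcripts tested singly over 29362 transcripts they numbered 9, 1 and 12 in dbdb against Control, dbR against dbdb and dbR against Control, beside 2811, 5 and 2497 of all transcripts. A fit to the 6 libraries of the comparison called 1 gene in dbR against dbdb, beside 22 of all genes. Leaving out single libraries, the number called ranged from 10 to 17 in dbdb against Control, from 1 to 4 in dbR against dbdb and from 14 to 20 in dbR against Control, where fewer samples were fitted. Otherwise the cause was not tested.

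With a replicate block the called genes numbered 14, 1 and 17 in the same order, beside 3345, 23 and 3030 of all genes. Deviations from the group means correlated at -0.175 to 0.0615 between libraries of the same replicate number, and not every library correlated best with its own number, so the numbers were not treated as pairs. With 3 libraries per group and levels near 0.1 FPKM, differences in genes such as Timp1 and Timp4 rest on few fragments.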
